A study of Mus musculus with 4 samples.

Results

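Bidirectional promoter regions are stretches of open chromatin that lie at the starts of gene pairs transcribed away from each other. Here they were the DNase-seq peaks of natural killer (NK) cells, merged over 4 libraries on the 19 autosomes wherever they touched or overlapped, that lay within 1 kb of the 5' ends of both genes of such a pair. Both genes had to be protein-coding in the GENCODE annotation of mm10, on opposite strands, head to head and with starts at most 1000 bp apart. This rule kept 1275 of 75963 merged regions. They were set against the 17492 regions within 1 kb of a single start, here called single-gene regions, and the 56091 regions farther than 1 kb from any start, here called distal regions. A region within 1 kb of only 1 start of a divergent pair counts as single-gene. Bidirectional regions had to lie near both starts, and the part of this in the comparisons was not tested.

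In DNase-seq, nuclei are digested with the enzyme DNase I, which cuts open chromatin most often, and the cut ends are sequenced. All 4 libraries were of primary NK cells, cytotoxic lymphocytes of the innate immune system, from virgin female B6CASTF1/J mice aged 2 months, a hybrid of C57BL/6J and CAST mice. They formed a single group of biological replicates 1 to 4, each with its own biosample but all with 1 donor identifier, so the spread between them may be partly technical. The labels used here state neither the tissue of origin nor the sort.

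In a bidirectional promoter, a short stretch of DNA serves both starts, and initiation proceeds outward from it on the opposite strands. Such promoters are known in mammals for a high content of CpG dinucleotides, for few TATA boxes and for binding sites of broadly expressed factors such as NRF1, NF-Y, GABP and SP1. Their genes are known to include many with household functions, among them DNA repair, and few with functions restricted to a tissue.

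The DNA between the starts of 5 pairs is printed because these pairs span the range of the measurements. The first 3 had regions among the 10 strongest, and the last 2 are pairs long known as bidirectional, among them Tsc2/Nthl1, the weakest of the 9 such pairs that met the rule. Each sequence is the mm10 (GRCm38.p6) plus strand, 5′ to 3′, from the base after the start of the gene on the minus strand to the base before the start of the gene on the plus strand. Capitals mark bases that lay in a footprint, a short protected stretch within cut DNA as called by the authors, in at least 3 of 4 libraries. The stretches lie at chr3:152210303-152210421 for Dnajb4/Fubp1, chr11:120098732-120098927 for Tepsin/Ndufaf8, chr5:120612590-120612738 for Rita1/Ddx54, chr11:101551956-101552148 for Brca1/Nbr1 and chr17:24632631-24632679 for Tsc2/Nthl1. None of them overlaps an annotated exon.
Dnajb4/Fubp1: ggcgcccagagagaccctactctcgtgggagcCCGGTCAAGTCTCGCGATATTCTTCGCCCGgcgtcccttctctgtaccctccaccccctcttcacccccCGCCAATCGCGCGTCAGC
Tepsin/Ndufaf8: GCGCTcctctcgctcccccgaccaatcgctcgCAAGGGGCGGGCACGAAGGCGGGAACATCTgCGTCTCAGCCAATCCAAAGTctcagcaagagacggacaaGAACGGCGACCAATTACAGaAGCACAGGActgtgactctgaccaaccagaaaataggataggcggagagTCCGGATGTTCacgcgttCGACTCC
Rita1/Ddx54: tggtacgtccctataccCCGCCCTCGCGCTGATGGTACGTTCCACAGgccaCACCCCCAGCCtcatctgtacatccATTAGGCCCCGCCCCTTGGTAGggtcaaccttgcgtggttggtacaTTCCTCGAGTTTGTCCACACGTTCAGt
Brca1/Nbr1: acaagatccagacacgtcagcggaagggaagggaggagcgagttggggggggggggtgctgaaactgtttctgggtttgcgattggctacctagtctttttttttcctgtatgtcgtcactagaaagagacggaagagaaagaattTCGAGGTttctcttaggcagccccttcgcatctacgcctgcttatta
Tsc2/Nthl1: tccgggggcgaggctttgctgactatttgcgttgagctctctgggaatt

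In these sequences the footprinted share was 40.3% of 119 bases for Dnajb4/Fubp1, 51.5% of 196 bases for Tepsin/Ndufaf8 and 59.7% of 149 bases for Rita1/Ddx54. It was 3.63% of 193 bases for Brca1/Nbr1 and 0% of 49 bases for Tsc2/Nthl1. The stretch of Tepsin/Ndufaf8 held 3 matches to CCAAT, the sequence bound by NF-Y, of which 2 lay in capitals, and 1 match to GGGCGG, the GC box bound by SP and KLF factors, in capitals. Both GC boxes of Rita1/Ddx54 lay in capitals. Brca1/Nbr1 held 1 CCAAT match, outside capitals. The sequence is that of the reference genome, and the CAST alleles of the hybrid were not analysed here.

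The labelled cell type was checked at marker genes of NK, B, T and myeloid cells, by peaks within 1 kb of the annotated start. Of 11 NK markers, 7, 8, 11 and 6 had a peak in replicates 1 to 4, and Ncr1, Prf1, Nkg7, Il2rb, Eomes and Gzmb had one in every library, whereas Klrb1c and Gzma had one in replicate 3 alone. The summed signal of the NK markers was 22.2, 24.5, 62.8 and 21.4 in replicates 1 to 4. Of 5 B cell markers, 3, 4, 1 and 4 had a peak, with sums of 1.89, 4.71, 0.532 and 4.01. The T cell markers Cd3d, Cd3e, Cd4 and Cd8a and all 5 myeloid markers had no peak in any library, while Cd3g had one of 0.505, 0.534 and 0.598 in replicates 1 to 3. The part of other cells in the results was not tested. In bulk samples, fewer cells of a type with an open site and less opening per cell cannot be told apart. The libraries had 43014, 46244, 67437 and 35219 autosomal peaks, of which 1048, 1057, 1153 and 1015 lay in bidirectional regions.

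Almost every divergent pair was open in NK cells. The annotation held 735 such pairs, formed by 1450 of 20807 autosomal protein-coding genes. A peak within 1 kb of both starts was found at 690, 690, 694 and 685 pairs in replicates 1 to 4, and 681 pairs (92.7%) had one in every library. Of 18126 lone starts, those with no other start within 1 kb, 8370, 8643, 9034 and 8158 had a peak, and 7723 (42.6%) had one in every library. The share was 93.8% ± 0.501 for pairs and 47.2% ± 2.09 for lone starts (SD, n = 4), and the ranges of the libraries did not overlap. The difference was 46.7 ± 1.63 percentage points, higher for pairs in 4 of 4 libraries (two-sided exact sign-flip permutation test over libraries, p = 0.13). This is the smallest p that 4 libraries allow, so no comparison here can pass 0.05. The units are unlike, since a pair counts as open through a peak at either of its starts and a lone start only through its own. The part of this in the difference was not tested.

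The difference was smaller among starts of like base composition. A 500-bp window was called CpG-rich when its GC content was at least 50% and its ratio of observed to expected CpG at least 0.6, and this held for 618 of 735 pairs (84.1%) and 8032 of 18126 lone starts (44.3%). Among CpG-rich windows a peak was found at 97.6% ± 0.438 of pairs and 81.2% ± 1.78 of lone starts, a difference of 16.3 ± 1.47 points (SD, n = 4; exact permutation p = 0.13). Among the others the shares were 74.1% ± 1.28 of 117 pairs and 20.1% ± 2.39 of 10094 lone starts, a difference of 54.1 ± 1.37 points (exact permutation p = 0.13). This split was added after the data had been seen. The unlike units of pairs and lone starts apply to it as well.

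Of the 1275 bidirectional regions, 812 (63.7%) were found in all 4 libraries, 74 in 3, 94 in 2 and 295 in 1. Over all merged regions 34.9% were found in all 4. Single-gene regions reached 54.1%, CpG-rich single-gene regions 68.2% and distal regions 27.7%. Per library, 83.1% ± 4.51 of peaks in bidirectional regions recurred in the other 3 libraries, against 76.3% ± 7.93 of peaks in single-gene regions, a difference of 6.81 ± 3.57 points (higher in 4 of 4 libraries; exact permutation p = 0.13). Against CpG-rich single-gene regions, at 84.1% ± 3.34, the difference was -1.003 ± 1.83 points (higher in 2 of 4; exact permutation p = 0.5), so it was within the spread between libraries. In this and the later comparisons with CpG-rich single-gene regions, only the single-gene side was filtered. CpG-rich windows made up 940 of the 1275 bidirectional regions (73.7%), so the classes were not matched for composition.

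Peaks in bidirectional regions were stronger than those at single genes. Their median signal, the authors' value per peak, was 4.22, 5.37, 6.04 and 4.21 in replicates 1 to 4. In single-gene regions it was 1.81, 2.12, 1.91 and 1.95, in CpG-rich single-gene regions 2.57, 3.19, 3.40 and 2.54, and in distal regions 0.917, 0.906, 0.806 and 0.855. The lowest bidirectional value lay above the highest value of each other class. The ratio of medians was 2.54 ± 0.437 to single-gene regions, 1.69 ± 0.0606 to CpG-rich single-gene regions and 5.74 ± 1.30 to distal regions (SD, n = 4), each higher in 4 of 4 libraries (exact permutation p = 0.13). With 500 bp in place of 1 kb around a start, the ratio to single-gene regions was 2.34 ± 0.268. The scale of the signal between libraries is not stated by the authors, so these ratios were taken within each library.

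**Figure D1:**
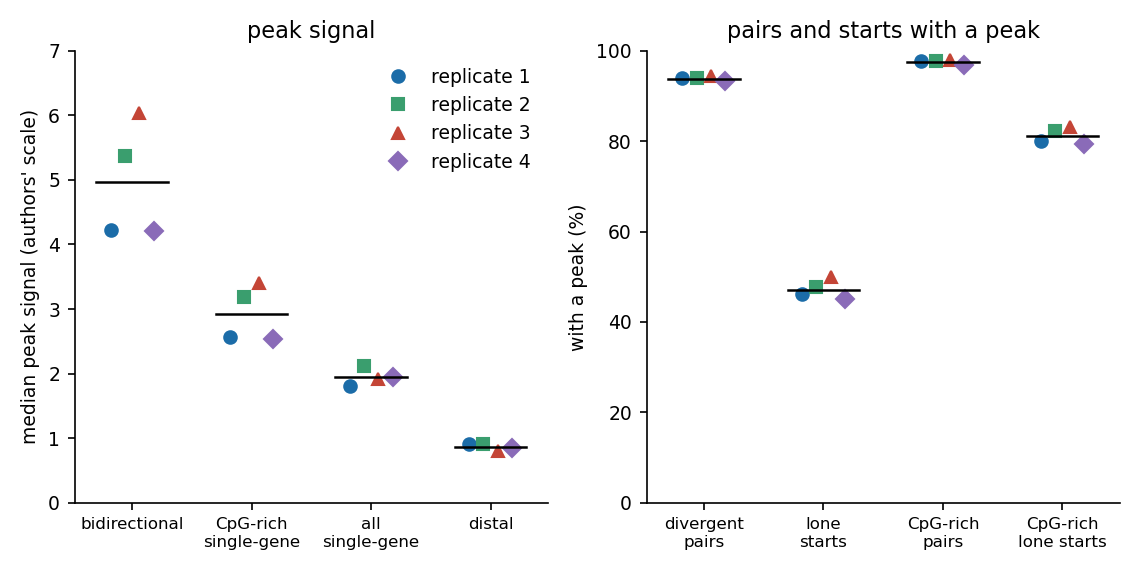
Left, median peak signal (authors' scale) of each library in bidirectional, CpG-rich single-gene, all single-gene and distal regions; right, the percentage of divergent pairs and lone starts with a peak, for all windows and for CpG-rich ones. Points are libraries and bars their means; bidirectional medians lie between 4.21 and 6.04, and pairs with a peak between 93.2% and 94.4%.

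The widths differed little, and the footprints more. The median peak width was 240 ± 16.3 bp in bidirectional and 230 ± 11.5 bp in single-gene regions, a difference of 10 ± 11.5 bp (higher in 2 of 4 libraries; exact permutation p = 0.5). Bidirectional peaks held 15.4 ± 0.402 footprints per kb of peak, against 12.5 ± 0.371 in single-gene peaks, a difference of 2.82 ± 0.341 (SD, n = 4; higher in 4 of 4; exact permutation p = 0.13). The difference from CpG-rich single-gene peaks, at 13.7 ± 0.581, was 1.67 ± 0.208 (higher in 4 of 4; exact permutation p = 0.13). The signal differed between these classes as well, and its part in the footprint number was not tested.

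Single-gene regions are counted once per region, and a start often has a strong region and weak ones beside it. The comparison was therefore repeated with the strongest peak of each pair and of each lone start that had one, a choice made after seeing the data. The median was 7.12 ± 1.63 for pairs and 3.796 ± 0.629 for lone starts, a ratio of 1.87 ± 0.160 (SD, n = 4; higher in 4 of 4; exact permutation p = 0.13). The 10th percentile differed more than the 90th. It was 2.52 ± 0.582 for pairs and 0.702 ± 0.0735 for lone starts, a ratio of 3.65 ± 1.11. The 90th percentile was 13.7 ± 3.12 for pairs and 11.4 ± 2.46 for lone starts, a ratio of 1.21 ± 0.0238. The groups thus differed more at the weak end of the distribution than at the strong end. With CpG-rich windows only, the ratio was 3.21 ± 0.842 at the 10th percentile, 1.59 ± 0.103 at the median and 1.16 ± 0.0177 at the 90th percentile. The strongest peak of a pair could lie at either of its starts, and the part of this in the ratios was not tested.

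Most pairs had 1 strong region that took in both starts, with weaker regions inside the genes. Of the 735 pairs, 686 were the nearest pair of at least 1 region, with 1 region at 270 pairs, 2 at 270, 3 at 122, 4 at 21 and 5 at 3. The strongest region of a pair covered both starts in 461 of 686 cases (67.2%), only the start on the minus strand in 76, only that on the plus strand in 90, and lay between the starts in 8. In 25 cases it lay within the minus-strand gene and in 26 within the plus-strand gene. Here and below, within or inside a gene means downstream of its start, as the ends of genes were not checked. Its centre was within 100 bp of the midpoint between the starts in 65.9% of pairs, at a median of 48.8 bp, and on the plus-strand side in 349 of 686 pairs. The other 589 regions lay mostly inside the genes, 259 in the minus-strand and 250 in the plus-strand gene. Their median signal was 0.925 ± 0.0740, against 7.14 ± 1.62 for the strongest regions, a split that the ranking itself sets. Of the strongest regions, 634 of 686 (92.4%) were CpG-rich, against 306 of 589 (52.0%) of the other regions.

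The sharing of a region by both starts varied with the distance between them. It had a median of 128 bp, with quartiles at 66 and 240 bp and a maximum of 987 bp. The strongest region covered both starts in 91.0% of pairs 0 to 50 bp apart, 91.7% at 51 to 100 bp, 68.5% at 101 to 200 bp, 51.6% at 201 to 300 bp, 29.5% at 301 to 500 bp and 6.78% at 501 to 1000 bp. The share of pairs with 2 or more regions in all 4 libraries was 12.7%, 12.2%, 14.5%, 20.8%, 23.4% and 35.3% in the same order. The median signal of the strongest region was 6.002 ± 1.31, 6.51 ± 1.18, 7.79 ± 2.03, 8.35 ± 1.79, 8.71 ± 2.01 and 5.84 ± 1.25 (SD, n = 4). In each library the pairs farthest apart, 501 to 1000 bp, were below those 301 to 500 bp apart. The median width of the strongest region lay between 260 bp and 360 bp over these classes of distance. The covering of both starts is thus largely set by the spacing itself.

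**Figure D2:**
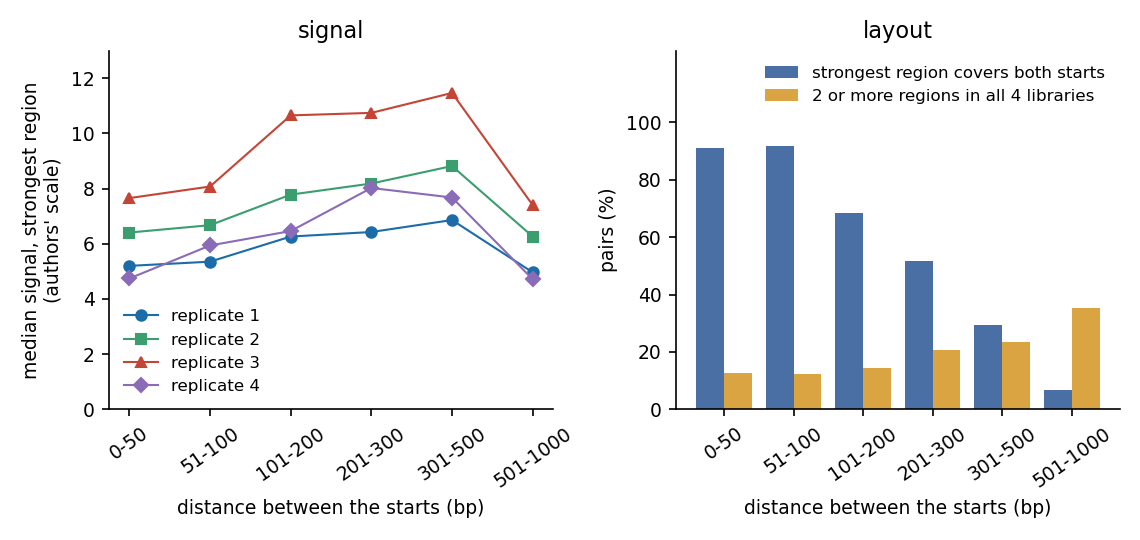
Left, median signal (authors' scale) of the strongest region of each pair by distance between the starts in bp, a line per library; right, the percentage of pairs whose strongest region covers both starts and the percentage with 2 or more regions in all 4 libraries. Covering of both starts falls to 6.78% at 501-1000 bp, a fall largely set by the spacing itself, and the means of the signal lie between 5.84 and 8.71.

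Open chromatin extended farther upstream of divergent starts than of lone ones, where upstream of 1 gene of a pair is the DNA toward its partner. The share of bases with an authors' FDR below 0.001 was measured at starts with a peak. In the 300 bp upstream it was 91.0%, 92.4%, 93.6% and 86.4% at divergent starts in replicates 1 to 4, and 64.8%, 65.8%, 69.6% and 58.1% at lone starts. The difference was 26.2 ± 1.76 points upstream and 14.5 ± 1.84 points in the first 300 bp of the gene, where the shares were 82.8% ± 7.02 at divergent starts and 68.3% ± 5.23 at lone starts. From 300 to 600 bp upstream the shares were 57.6% ± 10.8 at divergent starts and 21.9% ± 6.05 at lone starts, a difference of 35.7 ± 4.92 points (SD, n = 4; each higher in 4 of 4 libraries; exact permutation p = 0.13). The share upstream was 1.10 ± 0.0590 times that downstream at divergent starts and 0.946 ± 0.0186 times at lone starts, and the ranges over libraries did not overlap. At a spacing near the median, most of the DNA 300 to 600 bp upstream of 1 gene is the transcribed part of the other. Part of the nearest 300 bp upstream is so as well. Both upstream differences and the ratio are thus partly given by the arrangement. The starts were not matched for composition here, and CpG-rich windows made up 84.1% of pairs and 44.3% of lone starts. Peaks, FDR values and footprints came from the same alignments, so none is an independent check of another.

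**Figure D3:**
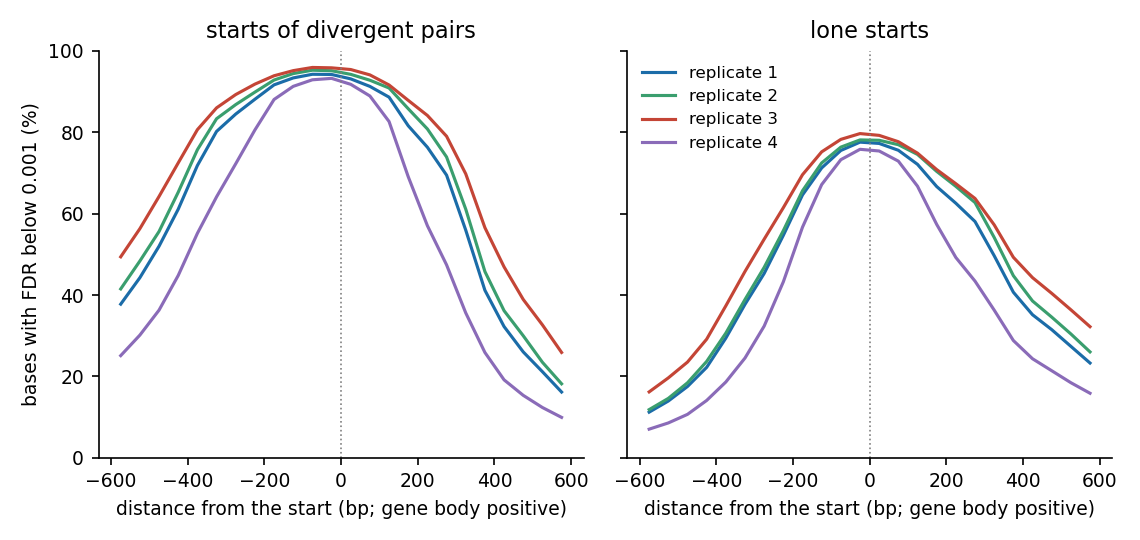
Percentage of bases with an FDR below 0.001 in bins of 50 bp around the 5' ends of divergent pairs (left) and lone starts (right) that have a peak, a line per library, with distance in bp and the gene body positive. Upstream of the start the divergent profile averages 90.8% over 300 bp and the lone profile 64.6%.

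Averaged over pairs, the profile of low-FDR bases around the midpoint was wider at larger spacing. The width at which the share of low-FDR bases stood at or above 50% of its maximum was 800 bp for starts 0 to 100 bp apart, 900 bp for 101 to 300 bp and 1200 bp for 301 to 1000 bp. The maximum was 97.8% ± 1.12, 95.8% ± 0.815 and 81.5% ± 3.96 in the same order (SD, n = 4). These are widths of an average profile and not of the open stretch of any pair. The strongest region had a median width of 260 bp at spacings of 0 to 50 bp, 360 bp at 201 to 300 bp and 300 bp at 501 to 1000 bp. Footprints took up a larger share of the bases between the starts than of those inside the genes. They covered 25.4%, 26.8%, 29.9% and 22.2% of the bases between the starts in replicates 1 to 4. In the first 150 bp of either gene they covered 14.9% ± 2.75, and from 150 to 500 bp into the genes 2.62% ± 0.619. Every library showed this order.

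The 10 strongest regions, chosen by their mean signal, lay at pairs of varied functions. The region of Dnajb4, a co-chaperone, and Fubp1, a DNA-binding regulator of Myc, had signals of 15.7, 21.2, 31.5 and 21.9 in replicates 1 to 4 and lay at chr3:152210301-152210520, across both starts. That of Nfya, a subunit of the CCAAT-binding factor NF-Y, and Oard1, an enzyme that removes ADP-ribose from proteins, had 14.9, 20.5, 28.2 and 24.3 at chr17:48409581-48410060. Replicate 3 was the highest and replicate 1 the lowest library at both. Tepsin, an adaptor-associated trafficking protein, and Ndufaf8, an assembly factor of respiratory complex I, had 20.6, 21.4, 26.8 and 15.7 at chr11:120098681-120098940, with replicate 4 the lowest. Aamp/Pnkd, Pdcd10/Serpini1, Rita1/Ddx54, Fbh1/Ankrd16, Dcaf6/Mpc2 and Enkur/Thnsl1 had means from 18.6 ± 5.16 to 21.4 ± 4.55 (SD, n = 4). Replicate 3 was the highest library at all 9 pairs named here.

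**Figure D4:**
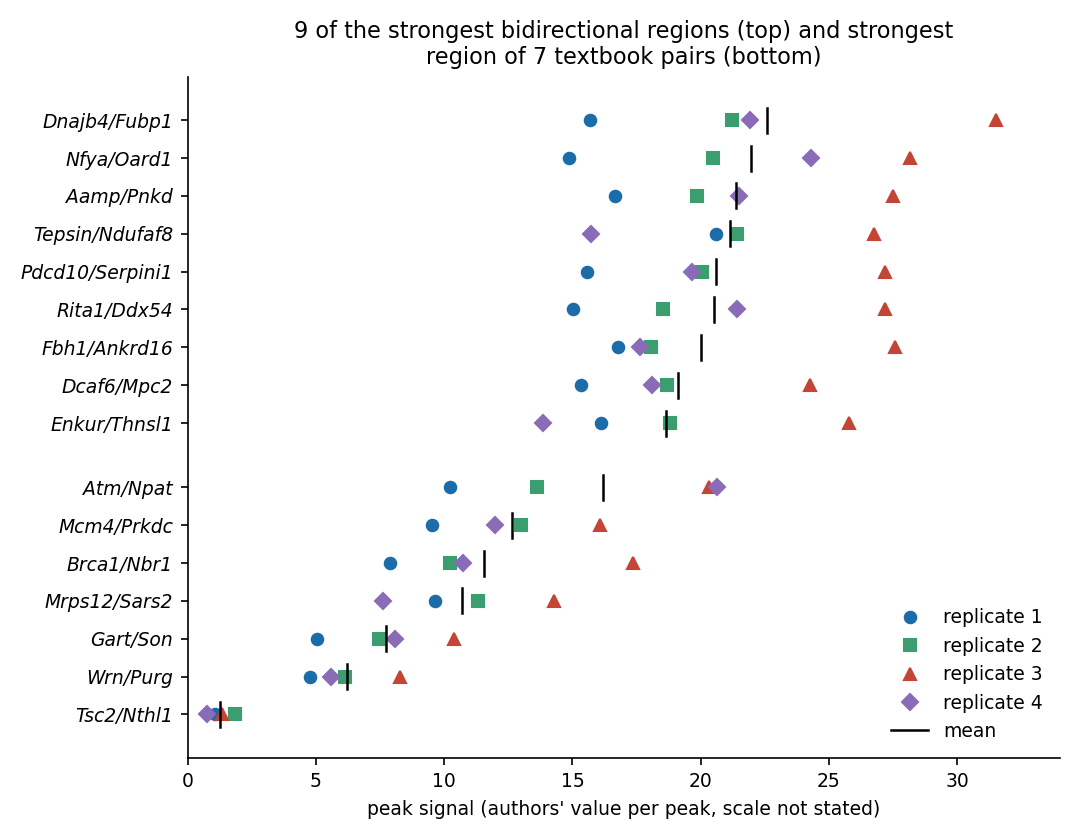
Peak signal (authors' value, scale not stated) in each of the 4 libraries for 9 of the 10 strongest bidirectional regions (top) and for the strongest region of 7 textbook pairs (bottom); the bar is the mean. Replicate 3 is the highest library in all 9 upper rows, and Tsc2/Nthl1 lies lowest, from 0.74 to 1.85.

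Of 18 listed pairs known as bidirectional promoters from earlier work, 9 met the rule. Each of these 9 had a region in all 4 libraries, at differing levels. Atm, the kinase that signals DNA breaks, and Npat, an activator of histone genes, had 10.2, 13.6, 20.3 and 20.6 in replicates 1 to 4 at chr9:53536681-53537060. Replicates 3 and 4 were the high libraries there. Mcm4, a subunit of the replicative helicase, and Prkdc, the DNA-dependent protein kinase of end joining, start 466 bp apart, and the strongest region, with 9.52, 13.01, 16.1 and 11.99, covered the Mcm4 start alone. A neighbouring region over the Prkdc start was called in replicates 3 and 4 only, with 7.18 and 5.57.

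At Brca1, the homologous recombination factor, and Nbr1, a receptor of selective autophagy, the strongest region did not lie over the starts. It lay at chr11:101552501-101552920 within Nbr1, 658.5 bp from the midpoint, with 7.89, 10.2, 17.4 and 10.8 in replicates 1 to 4. The region over both starts, chr11:101551801-101552420, had 6.44, 9.30, 10.8 and 3.04. Replicate 4 was the lowest library over the starts, and the footprints there numbered 9, 14, 13 and 3. A similar layout was seen at Gart, an enzyme of purine synthesis, and Son, a splicing cofactor, where the strongest region lay within Son with 5.05, 7.45, 10.4 and 8.08. A second region over the Gart start had 4.87, 7.37, 6.87 and 5.55. Wrn/Purg, with the RecQ helicase of Werner syndrome, had 6.19 ± 1.502 over the Wrn start, and Mrps12/Sars2, a mitochondrial ribosomal protein and the mitochondrial seryl-tRNA synthetase, 10.7 ± 2.82 (SD, n = 4). The weakest was Tsc2, an inhibitor of growth signalling through mTORC1, with Nthl1, a base excision repair glycosylase, at 1.06, 1.85, 1.33 and 0.740. No library of Tsc2/Nthl1 reached the lowest library of the other textbook pairs named here.

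The other 9 textbook pairs had overlapping 5' ends in this annotation and so fell outside the rule. Their strongest peaks, given for completeness, ranged from 2.497 ± 0.734 at Surf1/Surf2 to 25.3 ± 7.66 at Sugct/Mplkip. Hspd1/Hspe1, the mitochondrial chaperonins, had 9.04, 12.2, 18.5 and 12.6, and Psmb9/Tap1, which act in antigen processing, had 8.46, 10.3, 15.9 and 8.76. Col4a1/Col4a2, the collagen IV genes of basement membranes, had no peak in any library.

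Of 91 listed DNA repair genes, 28 (30.8%) belonged to a divergent pair, against 1447 of 20780 gene symbols (6.96%), a property of the annotation and not of the cells. All 28 had a peak in all 4 libraries, against 92.6% of all paired genes. The median of the strongest peak over their 29 pairs was 6.49, 8.44, 10.7 and 6.96 in replicates 1 to 4, against 5.66, 7.29, 9.35 and 6.19 over all divergent pairs. Beside the pairs above, Pinlyp/Xrcc1, with a scaffold of single-strand break repair, had 9.40, 13.3, 20.6 and 17.7. That region lay within Xrcc1, 857 bp from the midpoint, and covered neither start. Recql/Golt1b, with a RecQ helicase, had 9.52, 14.4, 16.6 and 13.6. Replicate 1 was the lowest library at both. Rad54l/Pomgnt1, with a recombination motor protein, was the weakest of the 29 with 0.846, 1.07, 1.47 and 0.798, and the next was Tsc2/Nthl1.

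Of 80 listed genes of replication and the cell cycle, 13 (16.3%) were paired, against 6.96% of all genes. All 13 were open in every library, close to the 92.6% of all paired genes. Cdc27, a subunit of the anaphase-promoting complex, and Myl4, an atrial myosin light chain, had 13.1, 16.6, 21.6 and 12.5. Ssna1/Anapc2, with another subunit of that complex, had 8.13, 11.1, 13.05 and 9.17. Rpa3/Umad1, with a subunit of the single-strand binding complex RPA, had 7.16, 10.7, 12.1 and 9.51. The lowest pair was Pxmp2/Pole, with the catalytic subunit of DNA polymerase epsilon, at 2.19, 3.08, 3.30 and 1.57. The range within the list thus exceeded the spread between libraries.

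Mitochondrial ribosome and respiratory chain genes gave 40 of 168 (23.8%) in a divergent pair, against 6.96% of all genes. All 40 were open in every library, against 92.6% of all paired genes. Their pairs had medians of 6.06, 8.17, 10.04 and 6.41 in replicates 1 to 4. Mrps18b/Ppp1r10 had 11.3, 14.2, 20.4 and 21.1, with replicates 3 and 4 high. Mrpl32/Psma2, which joins a mitochondrial ribosomal protein to a proteasome subunit, had 10.4, 13.4, 16.9 and 16.5, and Rps28/Ndufa7, which joins a cytosolic ribosomal protein to a subunit of complex I with starts 10 bp apart, had 11.2, 13.04, 19.2 and 13.3. At the low end stood Eme2/Mrps34, at 1.18, 1.44, 1.33 and 1.23. Of 37 aminoacyl-tRNA synthetase genes 5 (13.5%) were paired and all 5 were open in every library, led by Mrps12/Sars2 and S100pbp/Yars, the tyrosyl enzyme, with 6.45, 9.38, 14.5 and 8.70. Orc3/Rars2, an origin recognition subunit with the mitochondrial arginyl enzyme, had 5.06, 6.06, 6.43 and 5.56, and Kars/Terf2ip, the lysyl enzyme with a telomere protein, had 4.83, 6.12, 6.50 and 4.56.

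Lists added after seeing the data gave 8 of 49 proteasome and chaperonin genes and 9 of 76 cytosolic ribosome genes in a pair, which is 16.3% and 11.8%, against 6.96% of all genes. All 8 of the first list and 8 of the second (88.9%) were open in every library, close to the 92.6% of all paired genes. Cct5/Fam173b, with a chaperonin subunit, had 10.8, 12.2, 17.2 and 12.2, Psmb1/Tbp, a proteasome subunit with the TATA-binding protein, 8.19, 8.92, 10.4 and 7.48, and Med22/Rpl7a, a Mediator subunit with a ribosomal protein, 10.7, 12.6, 18.3 and 14.1.

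Histone pairs were weaker. Replication-dependent histone genes are arranged in clusters, and 27 of 67 (40.3%) were in a divergent pair, 13 pairs joining 2 histone genes. Of the 27 genes, 21 (77.8%) were open in every library, against 92.6% of all paired genes. The strongest of the 14 pairs with a histone gene was Hist1h2bf/Hist1h2ad at 4.09, 5.01, 8.05 and 4.62, and the median over pairs with a peak was 3.22, 3.67, 5.10 and 1.95, below that of all divergent pairs in each library. Hist1h2bq/Hist1h2ao, Hist1h2ap/Hist1h2br and Hist1h2ba/Hist1h2aa had no peak. Histone genes have near-identical copies, so reads from 1 may have been lost or assigned to another, and this was not tested. Of 385 Zfp zinc finger genes 20 (5.19%) were paired and 18 of these open in every library. Zfp654/Cggbp1 was the strongest, with 13.3, 16.5, 26.1 and 18.1 between starts 344 bp apart, followed by Zfp277/Dock4 at 12.05 ± 2.65, Zfp142/Bcs1l at 10.3 ± 2.97 and Zfp319/Usb1 at 10.1 ± 1.75.

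Of 110 listed NK and immune genes, 0 belonged to a divergent pair, against 6.96% of all genes, again a property of the annotation and not of the cells, and 3 were in pairs with overlapping 5' ends, Tap1/Psmb9 among them. In a broader set of 404 genes picked by immune symbols after the data had been seen, 6 (1.49%) were paired, and 3 of these 6 were open in every library, against 92.6% of all paired genes. Park7, an oxidative stress protein, and Tnfrsf9, the co-stimulatory receptor 4-1BB, had 5.35, 8.69, 12.9 and 13.6 in replicates 1 to 4. Plgrkt, a plasminogen receptor, and Cd274, the checkpoint ligand PD-L1, had 3.50, 5.08, 7.97 and 3.79. H2-T22, a nonclassical MHC class I gene, with Gm6034, had 2.43, 2.69, 5.997 and 2.19, with replicate 3 high. The peak at a shared promoter does not tell which of the genes was transcribed. Il17rb/Chdh, Smyd1/Cd8b1 and Il11/Tmem190 had no peak.

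Of the short motifs of broadly expressed factors, only CCAAT and GGGCGG occurred in more than 10% of bidirectional windows. They are also the shortest of these motifs, and a shorter string matches more often by its length alone. The shares can therefore not be compared between motifs. Between classes of regions they can be compared as descriptions only, since the classes were not matched for base composition. Over all regions of a class, the median GC content of the 500-bp windows was 60.6% in bidirectional, 64.8% in CpG-rich single-gene and 48.6% in distal regions. Exact matches on either strand were counted in the central 200 bp of the 812 bidirectional regions found in all 4 libraries, and in windows of the same length in 7619 CpG-rich single-gene and 15563 distal regions, with overlapping matches counted once and no motif contained in another. CCAAT occurred in 35.5% of bidirectional windows, 29.1% of CpG-rich single-gene windows and 19.6% of distal windows, and at least 2 matches in 14.4%, 10.4% and 3.36% of them. GGGCGG occurred in 57.8% of bidirectional, 65.6% of CpG-rich single-gene and 17.0% of distal windows. CCGGAAGT, bound by ETS factors of the GABP class, occurred in 8.87%, 7.81% and 1.54% in the same order, and AAGATGGC, bound by YY1, in 5.30%, 4.15% and 1.57%. GCATGCGC, bound by NRF1, stood at 5.17%, 5.38% and 1.13%, TCACGTG, bound by USF, at 6.03%, 5.24% and 2.59%, and TGACGTCA, bound by CREB and ATF factors, at 3.69%, 3.56% and 1.09%. CTACAATTC of ZNF143 was found in 5 windows.

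Motifs typical of distal elements were rarer in bidirectional than in distal regions. TGTGGTTT of RUNX factors was in 0.246% of bidirectional, 0.420% of CpG-rich single-gene and 4.78% of distal windows. AGGTGTGA of T-box factors was in 0.616%, 0.354% and 2.08%, TGANTCA of AP-1 in 2.34%, 2.05% and 8.97%, and CAGGGGGC, the core of the CTCF motif, in 2.09%, 4.54% and 6.50%. TATAAA was in 2.83%, 2.18% and 4.99%, and CAAAGTCCA of HNF4, a liver factor taken as a control, in 0.123%, 0.0788% and 0.193%. RUNX and T-box factors shape NK cell identity, and here 2 and 5 of the 812 bidirectional windows held their motifs. A match is a description of the sequence and not of binding. The part of base composition in the differences between classes was not tested.

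Footprints favoured a subset of these motifs. Over whole bidirectional regions, footprints covered 22.7%, 24.4%, 27.4% and 19.6% of bases in replicates 1 to 4. Of 76 NRF1 matches, 82.9%, 86.8%, 88.2% and 86.8% lay at least 80% within a footprint, and of 42 CREB and ATF matches 78.6%, 83.3%, 90.5% and 85.7%. Both were far above the share of bases in each library. For 1335 GC boxes the share was 52.2% ± 6.45, for 121 ETS matches 45.0% ± 10.5 and for 83 USF matches 34.04% ± 16.5 (SD, n = 4). For USF, replicate 3 stood at 57.8%, against 20.5% in the lowest library. CCAAT, with 710 matches at 18.7% ± 2.59, stood below the share of bases in all 4 libraries, as did AP-1 with 34 matches at 5.15% ± 2.82. A match counted only with at least 80% of its length in a footprint, which a share of single bases does not require. Standing below that share does not by itself show that footprints avoid a motif. At CpG-rich single-gene regions the shares were 81.3% ± 3.92 for NRF1, 80.4% ± 9.68 for CREB and ATF and 39.5% ± 5.45 for GC boxes, where 18.9% ± 2.61 of bases were footprinted. The preference of DNase I for particular bases also shapes footprints and was not measured here.

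**Figure D5:**
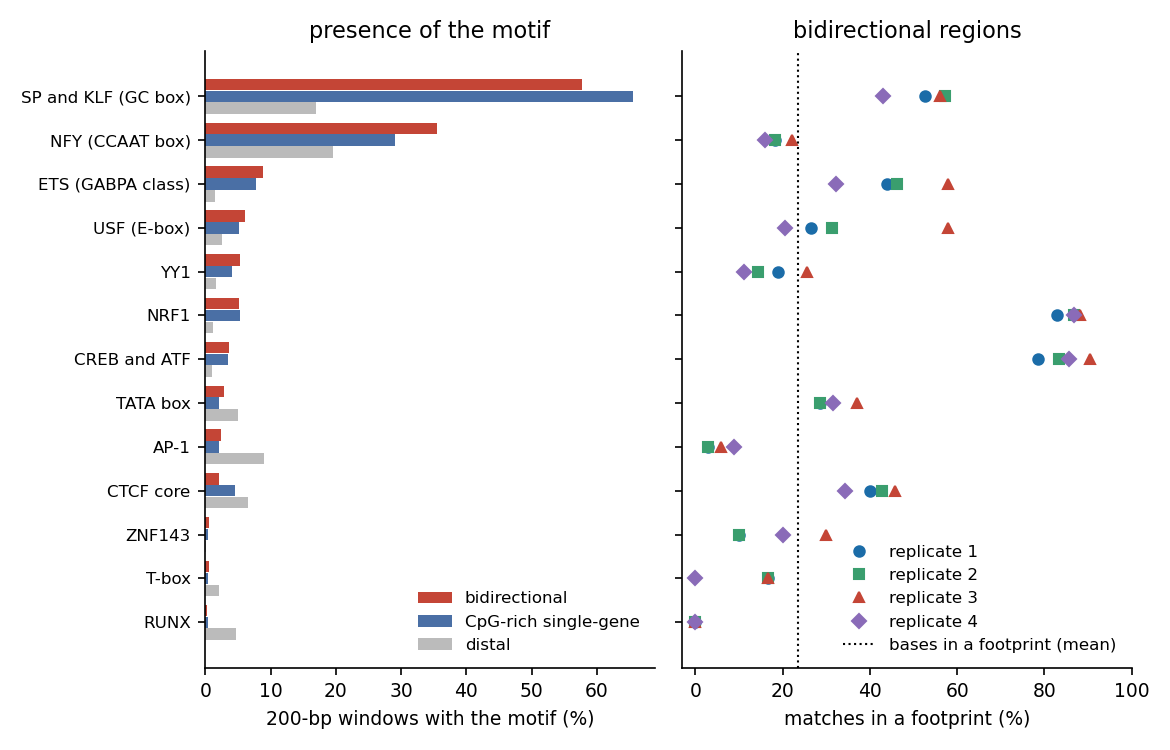
Left, percentage of 200-bp windows that hold each motif in bidirectional, CpG-rich single-gene and distal regions found in all 4 libraries; right, percentage of motif matches in bidirectional regions that lie in a footprint, a point per library, with the mean share of all bases as a dotted line. NRF1 and CREB and ATF matches lie between 78.6% and 90.5%, and CCAAT matches between 16.1% and 22.3%.

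Regions with a CCAAT match were stronger than those without. Among the 812 regions, the 288 with a match had a median signal of 7.83 ± 1.86 and the 524 without 5.39 ± 1.26, a ratio of 1.45 ± 0.105 (SD over 4 libraries; higher in 4 of 4; exact permutation p = 0.13). The ratio was 1.44 ± 0.117 for the 30 regions with a CREB and ATF match, 1.33 ± 0.295 for the 42 with NRF1, 1.25 ± 0.129 for USF, 1.23 ± 0.132 for the GC box and 1.19 ± 0.0386 for YY1. It was 0.929 ± 0.0292 for ETS and 0.807 ± 0.0466 for TATAAA, both below 1 in 4 of 4 libraries. These are 8 comparisons, and each had the smallest exact permutation p that the design allows, which Benjamini-Hochberg adjustment over the 8 leaves at 0.13. The position of a region relative to the starts differs between these sets and was not held fixed.

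The libraries ranked the regions alike but differed in level. Over the 812 regions the Spearman correlation of signals lay between 0.922, for replicates 1 and 4, and 0.982, for replicates 1 and 2, a description across regions that are not independent. The median was 5.17, 6.53, 8.16 and 5.18 in replicates 1 to 4, and replicate 3 was the highest library at 687 regions, while replicate 1 was the lowest at 412 and replicate 4 at 384. The NK marker genes given above moved the same way between libraries, with a summed signal of 62.8 in replicate 3 and 21.4 to 24.5 in the others. The part of cell purity, depth or scaling in this was not tested.

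The regions differed in how much the libraries varied. Among regions found in all 4 libraries, the ratio of the highest to the lowest library was greatest at Nrg4/Tmem266, with 0.599, 1.11, 3.14 and 1.55 in a region 202 bp from the midpoint, a ratio of 5.24. Entpd5/Bbof1, Hscb/Chek2 and Hist1h2ac/Hist1h2bc followed with ratios of 4.68, 3.87 and 3.83. In each of these 4 pairs the region was the second strongest and lay inside a gene. The ratio was smallest, at 1.13, at Cdr2/Mfsd13b, with 0.823, 0.785, 0.764 and 0.730 in a region that was likewise the second strongest and inside a gene. The second strongest region of Nfya/Oard1, inside Nfya, had 1.92, 2.15, 2.19 and 2.19, a ratio of 1.14. The ratio was also 1.14 at Exoc2/Gm5447, whose region over the Exoc2 start had 1.90, 1.90, 2.04 and 1.80. The widest region, 1740 bp at Slc30a7/Extl2, was a weak one with 1.18, 1.29, 1.22 and 0.634. Rgs9bp/Ankrd27, Fbxo9/Ick, Hs2st1/Selenof and Hist2h2ac/Hist2h2be had the next widest, from 980 to 1180 bp.

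Regions found in 1 library were mostly weak. The 295 of them had a median signal of 0.473, 285 were not the strongest of their pair, and 120 came from replicate 3. The 5 strongest were exceptions in signal, at Rita1/Ddx54 with 15.2 in replicate 3, Senp8/Myo9a with 6.98 in replicate 2, Myl12b/Myom1 with 6.61 in replicate 4, Pdcd10/Serpini1 with 4.89 in replicate 4 and Trip13/Brd9 with 4.00 in replicate 3. At all 5, every base had an FDR below 0.001 in each of the 4 libraries, and the next bidirectional region was 20 to 60 bp away. At these 5 the low FDR was thus shared by the libraries without a separate peak there. Of all 295, 102 (34.6%) had an FDR below 0.001 over at least 50% of their bases in another library, and 171 (58.0%) at none of their bases. In the library that called the peak, the median share of such bases was itself 0%, so this measure does not show opening in 1 library alone.

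No peak in any library was found at 37 pairs (5.03%), of which 12 were CpG-rich. The pairs named here were chosen after their values were seen. Among them were Smc1b/Ribc2, with a meiotic cohesin subunit, Patl2/Terb2, with an oocyte RNA-binding protein and a meiotic telomere protein, and Dgcr2/Tssk2, with a kinase of the testis. Kirrel2/Nphs1, whose Nphs1 encodes nephrin of the kidney filter, Obsl1/Inha, with the inhibin alpha subunit, and Hist1h2ba/Hist1h2aa, with histones of the testis, were others. Slc27a5/Trim28, Pcdh12/Rnf14, Nr2e1/Ostm1 and Stap2/Mpnd were also among the 37. The 37 pairs were not sorted by function or by breadth of expression, so the functions named here do not describe them as a set. The nearest region present in at least 3 libraries lay within 5 kb for 10 of the 37 and beyond 20 kb for 16, at a median of 12.8 kb. Rnf151/Rps2 contains Rps2, a gene of the small ribosomal subunit, and the nearest region lay 1745 bp away on the Rps2 side with 6.15, 8.63, 13.2 and 10.7. For Ccnt1/4930415O20Rik, with the cyclin of the elongation factor P-TEFb, it lay 2903 bp away on the Ccnt1 side with 13.1, 16.9, 26.7 and 16.8. For Dgcr2/Tssk2 it lay 6622 bp away on the Dgcr2 side with 7.90, 10.5, 14.5 and 8.55. In these cases the open chromatin lay outside the 1 kb around the annotated starts.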

How the data were processed

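DNase-seq libraries of NK cells were analysed from the authors' files on mm10, derived from each library's own alignments per the deposited readmes, with no pooling. Footprints came from the alignments and the FDR file, and only their positions were used. The authors' signal, 1 value per peak, has no stated scale, and their FDR, read as a q-value per base, lists values below 0.05. The aligner, the callers and the number of reads count as not given in the sources used here. Depth is therefore unknown, and no counting intervals are given. The longer of each library's 2 peak lists was used. Genes came from GENCODE vM21 (GRCm38.p6, the mm10 assembly). Sequence windows were 500 bp for composition and 200 bp for motifs. Scripts used Python 3.11.15 with pandas 2.3.3, numpy 2.4.6 and pysam 0.24.0, and bedtools 2.31.1, and were tested on simulated data. Values were computed per library, then compared by a two-sided exact sign-flip permutation test over the 4 libraries. Members and gene lists were chosen with earlier results of these data known. Named regions are the 10 strongest, all textbook pairs, up to 4 of each gene list by signal, the 5 widest, the 4 most and the 4 least variable, and the 5 strongest found in 1 library. The weakest members of lists, the pairs without a peak, and the added lists, splits and percentiles were chosen after their values were seen. Alternatives were the shorter peak list, other windows, distances, merging and classes, and leaving out each library. A few named items are not reported here.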

Additional observations from a re-analysis of the deposited data

Results flagged for a closer look

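Among 201 sets of 4 library values, 4 had a highest or lowest library whose gap to the nearest one, over the whole range, exceeded Dixon's 95% critical value. Chance flags about 1 in 20 such sets, more than were found. At Fbh1/Ankrd16, the region of 240 bp had 27.6 in replicate 3, against 16.8, 18.1 and 17.6 in replicates 1, 2 and 4. At Hist1h2bh/Hist1h3f, the region of 440 bp had 6.68 in replicate 3, against 3.36, 3.81 and 3.26. At H2-T22/Gm6034, the strongest peak had 5.997 in replicate 3, against 2.43, 2.69 and 2.19. At Nfya/Oard1, the weaker region of 280 bp inside Nfya had 1.92 in replicate 1, against 2.15, 2.19 and 2.19. Replicate 3 was the highest library at 687 of the 812 regions found in all 4.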

How the results depend on the processing

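With 4 libraries no comparison can pass 0.05, and with 3 the smallest exact p is 0.25, so only directions and sizes are compared here. No paired analysis between groups of samples was possible because all 4 libraries belong to 1 group, so that no replicate number is shared between groups. Classes of regions were compared within each library, so these comparisons were paired by library. Counting pairs with overlapping 5' ends moved the number of bidirectional regions to 2046, against 1275, and no other alternative moved it by over 1.5 times. The difference in recurring peaks was -1.003 points against CpG-rich single-gene regions, a reversal, and 4.40 points among regions of at least 3 libraries, against 6.81. In the reversed comparison only the single-gene regions were filtered for composition. No other alternative run reversed a direction. Leaving out 1 library gave signal ratios of 2.33 to 2.68, width differences of 6.67 to 13.3 bp, recurrence differences of 4.55 to 6.95 points, footprint differences of 2.70 to 2.99 per kb, pair differences of 46.2 to 47.4 points and 1169 to 1239 regions. The shorter peak list gave a signal ratio of 1.91 and a footprint difference of 1.97 per kb. The unknown depth limits what weak and single-library regions can show.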
